A study of Mus musculus with 20 samples.

Results

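Of 84524 windows of 1000 bp, 4701 (5.56%) were sparse in CpG, low to intermediate in methylation and away from dense unmethylated stretches. A window entered this set when it held 3 to 9 cytosines covered by at least 10 reads in all 20 libraries and when its methylation level, averaged over the 20 libraries, was at least 10% and below 50%. In addition its start had to lie more than 2000 bp from the start of any dense unmethylated window, that is, one with at least 20 cytosines and a level below 10%. The level of a window is the share of methylated reads among all reads over its cytosines. The windows were thus selected on their average level, number of cytosines and position, which are given as descriptions only, and not on any difference between groups. The windows are called sparse low-methylated windows here. The working name "enhancer-like" could not be checked, because neither chromatin data nor a gene annotation of the mm9 build was used.

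The libraries came from promyelocytes, the granulocyte precursors, of mice on the FVB/n background that carried the PML-RARα transgene or were wild type (WT). Enhanced reduced representation bisulfite sequencing (ERRBS) was used, which reads restriction fragments after bisulfite conversion of unmethylated cytosines. The 4 groups of 5 libraries each were CD34− (late) promyelocytes of PML-RARα mice, CD34+ (early) promyelocytes of PML-RARα mice, CD34− promyelocytes of WT mice and CD34+ promyelocytes of WT mice. Libraries carry numbers from the labels, and values of single libraries are given in the order 4, 6, 12, 14 and 20 for PML-RARα CD34−, 3, 5, 11, 13 and 19 for PML-RARα CD34+, 2, 8, 10, 16 and 18 for WT CD34− and 1, 7, 9, 15 and 17 for WT CD34+. The promoter of the transgene and the age of the mice are not given in the labels. Nor do these state that each library is a mouse of its own, so p-values measure a spread between libraries that may in part be technical.

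In mammalian genomes most CpGs outside CpG islands are methylated. Stretches with few CpGs and reduced methylation often lie far from promoters, are frequently bound by transcription factors, and change with cell type and differentiation more than CpG islands do. PML-RARα is the fusion protein of acute promyelocytic leukaemia, in which granulocytic maturation stops at the promyelocyte stage. CD34 is a surface protein of progenitors that is lost as granulocytic cells mature.

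The libraries held 83631324 to 362881291 reads of coverage over all their cytosines, and 245 to 740 at the median sparse low-methylated window. Coverage counts a read again at each cytosine it spans. Libraries 1 of WT CD34+, 5 and 11 of PML-RARα CD34+, and 6 and 12 of PML-RARα CD34− scattered most around the other libraries of their group, with a median absolute deviation of 6.23 to 8.78 points over the windows, against 3.52 to 5.96 points in the other 15. Windows with no methylated read at all made up 3.06% of the set in PML-RARα CD34− library 6, 3.74% in PML-RARα CD34+ library 11 and 2.77% in WT CD34+ library 1, and at most 1.02% in any other library. WT libraries of both fractions shared flowcells A, B and D. Among PML-RARα libraries, flowcell A held CD34− cells, flowcells C and D held CD34+ cells, and flowcell B held both.

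The 4701 windows held 22230 cytosines, with a median of 4 per window spread over a median of 171 bp. Their average levels had quartiles of 19.9, 31.1 and 42.2%. The nearest dense unmethylated window started at a median distance of 41000 bp, with quartiles of 16000 and 101000 bp. Most stood alone: 4386 had no neighbour of the set on either side, 150 runs held 2 adjacent windows and 5 runs held 3. They made up between 4.42% of the windows of chromosome 3 and 6.04% of those of chromosome 4.

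Methylation rose away from the windows where cytosines were measured there. Cytosines within 500 bp of the centre of the windows averaged 32.6 to 32.9%, a level that the rule sets. Those at 500 to 1000 bp averaged 44.3 to 45.8%, and those at 1000 to 5000 bp between 56.0 and 63.4%. Beyond 1000 bp each bin of 500 bp had measured cytosines for only 488 to 579 of the 4701 windows. The distance rule also keeps dense unmethylated windows out of the near surroundings. Sparse windows of the same level and cytosine number that started within 2000 bp of a dense unmethylated window, 780 in all, had low surroundings, as their choice implies. Cytosines at 1000 to 1500 bp from their centres averaged 8.2 to 11.9%. Sparse windows of 50 to 80%, 8568 in all, had surroundings of 61.8 to 73.7% over the same 5000 bp. The profile of the 4 groups ran in parallel, with WT CD34+ highest in every bin.

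**Figure D1:**
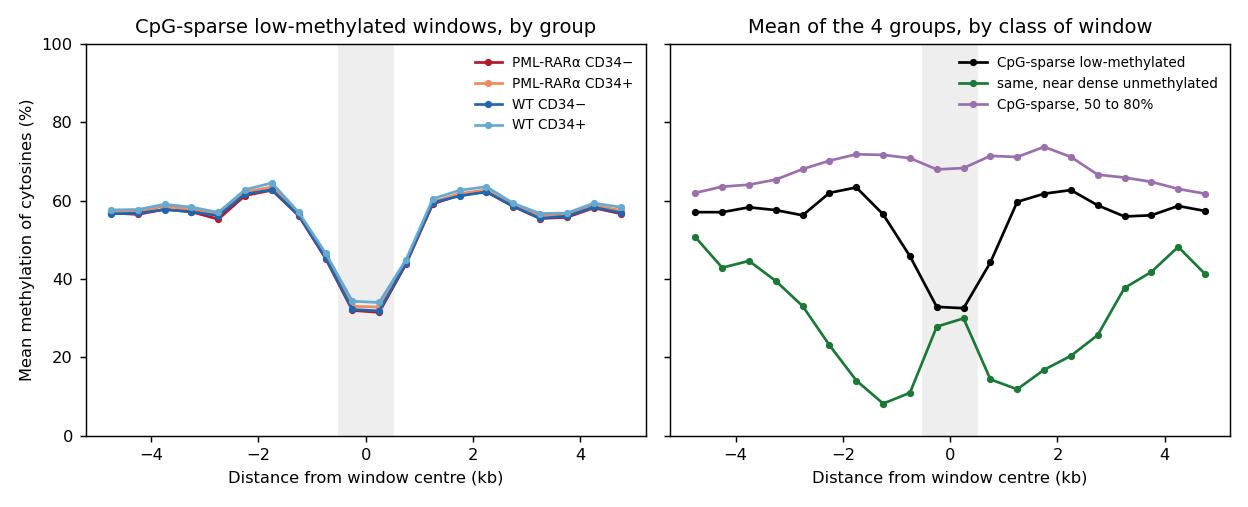
Mean methylation of cytosines (%) in bins of 500 bp against distance from the window centre (kb), with the window shaded. The left panel shows the sparse low-methylated windows in the 4 groups, with a dip to 31.5 to 34.3% at the centre, and the right panel sets them against the 780 windows near dense unmethylated ones and the 8568 windows of 50 to 80%.

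Within a window the cytosines often differed. The range between the lowest and the highest cytosine of a window, each averaged over the 20 libraries, had a median of 47.4 points, with quartiles of 26.5 and 73.5 points. In 776 windows (16.5%) the range was under 20 points, and in 2213 (47.1%) it was over 50 points. In 964 windows (20.5%) a cytosine below 10% stood beside one above 80%, whereas in 648 (13.8%) every cytosine lay from 10% to below 50%. Both strands of the same CpG were measured 2651 times and differed by a median of 4.09 points.

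The windows with the smallest spread over libraries, among those with at least 200 reads in each, were of the mixed kind in 3 of 5 cases. At chr1:166249001-166250000 the level was 49.1 ± 2.01% in PML-RARα CD34−, 50.2 ± 1.56% in PML-RARα CD34+, 49.9 ± 0.791% in WT CD34− and 49.8 ± 1.65% in WT CD34+ libraries (n = 5 per group, SD). Its first 2 cytosines averaged 96.3 to 99.6% in the 4 groups and its last 2 at most 0.78%, so that no cytosine was near the level of the window. The windows chr15:49159001-49160000 and chr17:70042001-70043000 had ranges of 89.3 and 92.4 points between cytosines. The other 2 were chr7:38985001-38986000, with a range of 15.8 points, and chr13:44964001-44965000, with a range of 4.15 points. The last stood apart in coverage, with 67953 to 225399 reads per library over 4 cytosines, and measured 33.0 to 38.9% in all 20 libraries.

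In 499 windows (10.6%) a cytosine stayed below 5% in every library while another stayed above 50% in every library. The reads came from FVB/n mice and were placed on mm9, which is built from another strain. A reference C that is T in FVB/n would be listed as unmethylated in every library, and the number of such sites among these cytosines was not tested. Of the differences with maturation described below, 2 of 170 in WT and 1 of 35 in PML-RARα fell in these 499 windows. Their choice on cytosines that stay low or high in every library leaves less room for a call. Their median within-group SD was 5.30 points, against 8.27 points in the other windows of the set. The low counts therefore do not tell whether such sites affect the calls.

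The edges of the level range were not gaps. The 3 windows just inside the lower bound, on chromosomes 1, 2 and 11, had average levels of 10.00, 10.02 and 10.02%, with libraries from 0 to 19.7%. The 3 just outside it, on chromosomes 2, 8 and 5, had 9.98% each, with libraries from 1.55 to 19.5%. At the upper bound the 3 inside, on chromosomes 12, 4 and 3, had 49.998, 49.98 and 49.98% (libraries from 32.7 to 71.3%), and the 3 outside, on chromosomes 14, 3 and 12, had 50.01, 50.01 and 50.03% (libraries from 31.6 to 65.4%).

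Averaged over all 4701 windows, methylation was lowest in the CD34− groups and highest in WT CD34+. The mean level was 29.9 ± 0.738% in PML-RARα CD34−, 31.1 ± 0.972% in PML-RARα CD34+, 30.1 ± 0.829% in WT CD34− and 32.3 ± 0.812% in WT CD34+ libraries (n = 5 per group, SD). PML-RARα CD34− libraries lay between 29.3 and 31.2% and PML-RARα CD34+ libraries between 29.9 and 32.3%, which overlap. WT CD34− libraries lay between 29.1 and 31.2% and WT CD34+ libraries between 31.4 and 33.1%, without overlap. The WT fractions did not overlap over all windows either (56.3 to 57.0% in CD34−, 57.3 to 57.9% in CD34+). The same held over sparse windows of 50 to 80% (66.2 to 68.0% in CD34−, 68.5 to 69.9% in CD34+).

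The CD34− minus CD34+ difference of these means was -1.24 points in PML-RARα and -2.22 points in WT mice. Over all windows it was -0.561 points in PML-RARα and -0.882 points in WT mice. Over the 8568 sparse windows of 50 to 80% it was -1.20 and -2.01 points, close to the values of the set. Between genotypes, PML-RARα minus WT was -1.16 points in CD34+ cells and -0.182 points in CD34− cells. On flowcell B, the one with both PML-RARα fractions, the maturation difference of PML-RARα mice was -1.88 points. In WT mice it was -2.87 points on flowcell A, -1.96 points on flowcell B and -1.69 points on flowcell D. The CD34+ genotype difference was -0.240 points on flowcell B (3 PML-RARα libraries against 1 WT library) and -2.04 points on flowcell D (1 against 2). The WT maturation difference on flowcell B rested on 1 library per fraction. No test was made of these averages.

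**Figure D2:**
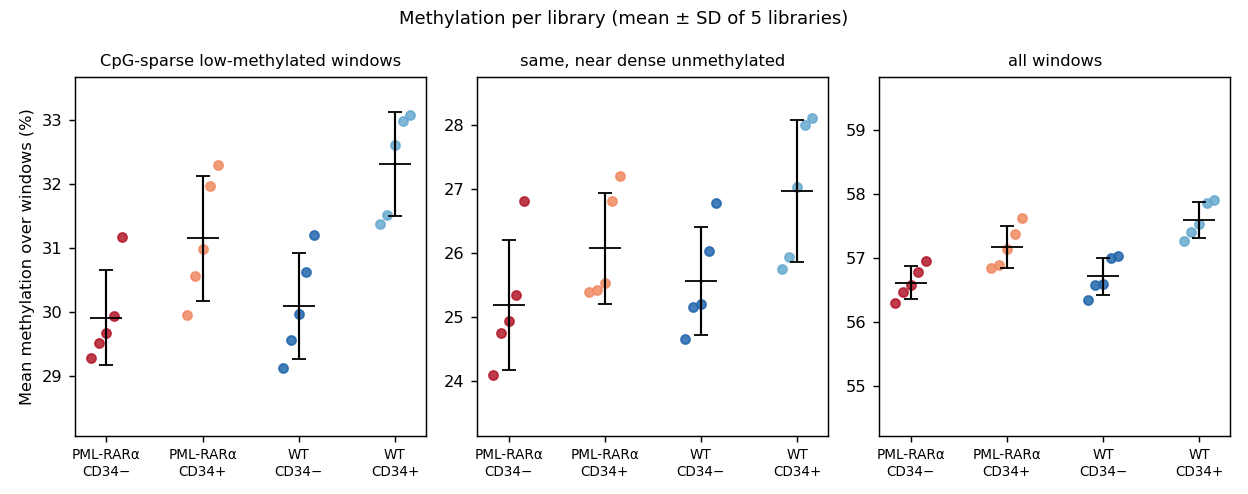
Mean methylation (%) over windows for each library (points) with the group mean and SD (bars, n = 5), for the 4701 sparse low-methylated windows, the 780 similar windows near dense unmethylated ones and all 84524 windows. The panels have the same span of points on the vertical axis but start at different levels, and the 2 WT groups do not overlap in the left and right panels.

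The first comparison asked what changes as WT promyelocytes lose CD34. Each of the 84524 windows was fitted with a quasi-binomial model, and a window was called when its Benjamini-Hochberg adjusted p over all windows was below 0.05 and the group means differed by at least 10 points. Of the 4701 sparse low-methylated windows 170 (3.62%) were called, where 0.45% of all windows were. Methylation was lower in CD34− cells in 150 of them (0.394% of all windows were called lower) and higher in 20 (0.0556% of all windows were called higher). The set thus held 44.7% of all 380 windows called in this comparison. This share is in part set by the rule, which chose middle levels. Nearly unmethylated or nearly fully methylated windows can hardly differ by the 10 points that a call needs. Called were 0.897% of the 780 similar windows near dense unmethylated ones, 1.45% of the sparse windows of 50 to 80% and 0.0622% of the 38568 sparse windows of 80% or more. The difference between these classes was not tested.

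The 150 losses had a median difference of -28.7 points, with a median level of 17.1% in WT CD34− and 48.1% in WT CD34+ cells. In 49 of the 150 the CD34− mean was below 10%, and in 64 the CD34+ mean was 50% or more. In 141 of these called windows the 5 CD34− libraries were all lower than the 5 CD34+ libraries, as they were, called or not, in 257 of the 4701 windows (5.47%) and in 1.74% of all windows. Of the 694 cytosines of the 150 windows, 673 (97.0%) were lower in CD34− cells, a share that the calls on the same reads favour. The 20 gains had a median difference of 18.9 points, with a median level of 36.3% in WT CD34− and 13.5% in WT CD34+ cells, and 18 of them had no overlap. Without regard to calls, all CD34− libraries were higher in 1.28% of the 4701 windows and in 0.377% of all windows.

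Differences in the surroundings of the 150 losses were smaller, which the choice of these losses on their size in part implies. The 36 measured windows next to them had a median difference of -3.59 points at a median level of 82.1%. Of the 36, 31 were lower in CD34− cells, as were 59.7% of all windows, and 4 were called, where 0.45% of all windows were. At 2000 bp the median difference was -0.683 points over 37 windows, 3 of them called, and at 10000 bp it was -0.926 points over 28 windows, 4 of them called.

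The largest loss was at chr9:50701001-50702000, a window of 5 cytosines 36000 bp from the nearest dense unmethylated window. Its levels were 6.33, 17.8, 9.04, 1.95 and 5.39% in PML-RARα CD34− libraries, against 64.9, 89.5, 50.4, 34.3 and 35.8% in PML-RARα CD34+ libraries. They were 14.3, 2.19, 10.3, 0.0938 and 1.38% in WT CD34− libraries, against 68.1, 76.6, 89.6, 62.7 and 71.2% in WT CD34+ libraries. In both genotypes all CD34− libraries were low and all CD34+ libraries high, without overlap, with PML-RARα CD34+ libraries spread over the widest range. The WT difference was -68.0 points (adjusted p = 0.000145, quasi-binomial test). That of PML-RARα mice was -46.9 points and missed the threshold (adjusted p = 0.0509). All 5 cytosines had this pattern, with means of 4.35 to 6.79% in WT CD34− and 69.7 to 77.1% in WT CD34+ cells.

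At chr19:18655001-18656000, another large loss, 9 cytosines lay within 106 bp on 1 strand. The level was 8.13 ± 6.45% in PML-RARα CD34−, 43.4 ± 17.3% in PML-RARα CD34+, 5.40 ± 3.20% in WT CD34− and 57.4 ± 21.4% in WT CD34+ libraries (n = 5 per group, SD). WT CD34− libraries lay between 3.00 and 9.30% and WT CD34+ libraries between 33.0 and 91.1%, so that the fractions were far apart although the CD34+ libraries varied widely. The WT difference was -52.0 points (adjusted p = 0.00152, quasi-binomial test).

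At chr12:82043001-82044000 the WT levels were 4.75 ± 4.18% in CD34− and 57.0 ± 13.4% in CD34+ libraries (n = 5 per group, SD), a difference of -52.3 points (adjusted p = 0.000145, quasi-binomial test). The window lay 3000 bp from a dense unmethylated one, close to the limit of the set. The other 7 of the 10 largest losses had differences of -48.6 to -51.9 points and were at chr2:31197001-31198000, chr10:120285001-120286000, chr5:134691001-134692000, chr19:10103001-10104000, chr10:95097001-95098000, chr14:70966001-70967000 and chr9:96041001-96042000. The call held without each of the 20 libraries in turn for 9 of the 10, the exception being chr19:10103001-10104000, which was covered by as few as 32 reads in a library. With limma on log2 ratios of reads 7 of the 10 had an adjusted p below 0.05.

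The largest gain was at chr9:116075001-116076000. Levels were 50.9, 74.9, 66.4, 64.9 and 80.8% in PML-RARα CD34− libraries, against 60.7, 0.781, 44.2, 32.0 and 26.4% in PML-RARα CD34+ libraries. They were 66.2, 66.5, 65.5, 76.0 and 71.5% in WT CD34− libraries, against 0, 16.0, 12.2, 45.5 and 17.4% in WT CD34+ libraries. The WT fractions did not overlap and differed by 50.9 points (adjusted p = 0.00507, quasi-binomial test), whereas the PML-RARα fractions overlapped through CD34+ library 3. The call was lost without WT CD34+ library 9, and limma gave an adjusted p of 0.229.

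At chr15:99449001-99450000 levels were 59.8, 68.6, 56.3, 49.5 and 66.5% in PML-RARα CD34− libraries, against 32.9, 51.1, 35.0, 48.3 and 53.0% in PML-RARα CD34+ libraries. They were 67.8, 62.4, 56.8, 69.2 and 68.8% in WT CD34− libraries, against 42.3, 22.8, 10.4, 39.1 and 14.6% in WT CD34+ libraries. The WT fractions were apart by 39.1 points (adjusted p = 0.0005, quasi-binomial test), and the CD34− libraries of both genotypes were high, while the PML-RARα fractions overlapped and differed by 16.1 points (adjusted p = 0.559).

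The gain at chr11:100753001-100754000 was called in both genotypes. Levels were 49.4, 53.3, 30.1, 55.7 and 46.1% in PML-RARα CD34− libraries, against 20.8, 17.9, 21.2, 34.8 and 26.8% in PML-RARα CD34+ libraries. They were 48.2, 39.6, 40.5, 52.8 and 52.9% in WT CD34− libraries, against 15.7, 9.09, 7.73, 16.5 and 16.5% in WT CD34+ libraries. The fractions were apart in WT mice, where the difference was 33.7 points (adjusted p = 0.000358), and overlapped slightly in PML-RARα mice, where it was 22.6 points (adjusted p = 0.0268, quasi-binomial test for both). The other 7 of the 10 largest gains had differences of 19.0 to 32.6 points and were at chr10:92827001-92828000, chr11:79121001-79122000, chr12:36396001-36397000, chr4:45559001-45560000, chr5:77796001-77797000, chr11:120503001-120504000 and chr2:165613001-165614000. Of the 10 gains, 6 held without each library in turn and 6 had an adjusted p below 0.05 with limma.

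**Figure D3:**
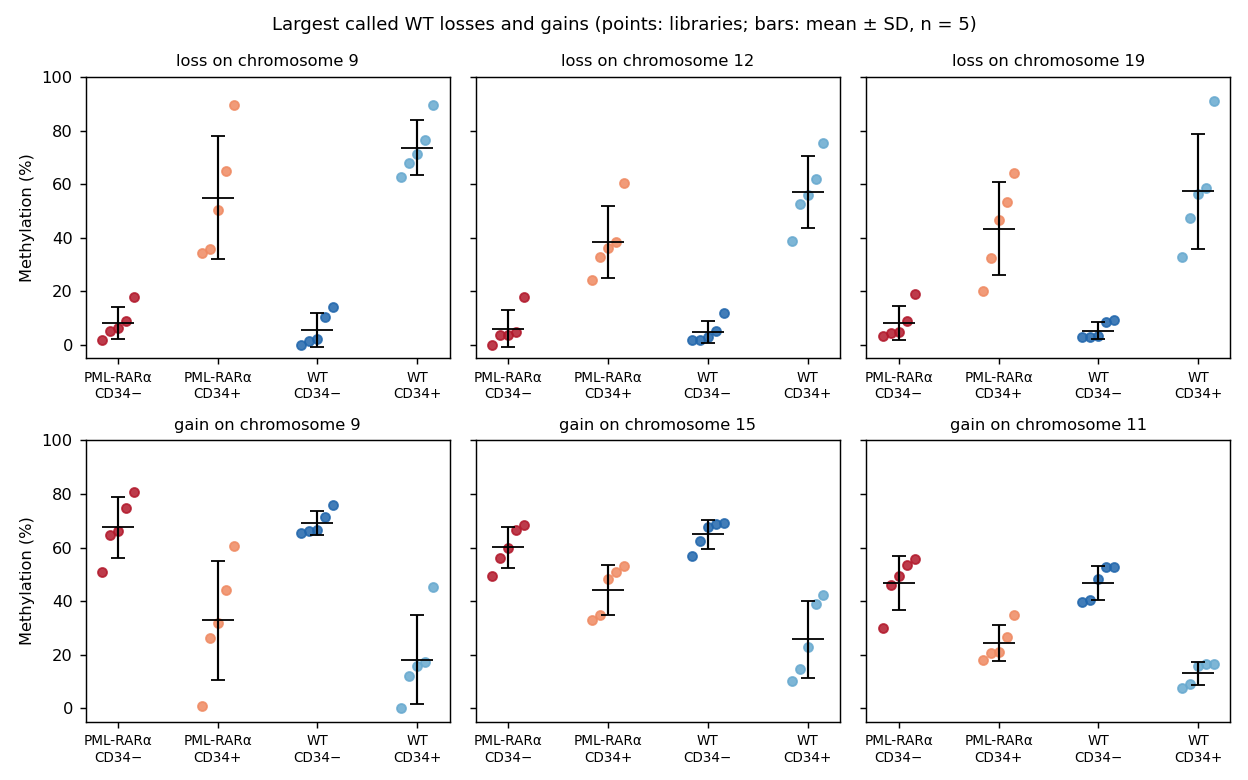
Methylation (%) of each library (points) with the mean and SD of each group (bars, n = 5) at the 3 largest called WT losses (top) and the 3 largest called WT gains (bottom). The losses are chr9:50701001-50702000, chr12:82043001-82044000 and chr19:18655001-18656000, and the gains chr9:116075001-116076000, chr15:99449001-99450000 and chr11:100753001-100754000, and in each panel the 2 WT groups do not overlap.

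Without single libraries, the count of 170 ranged from 114, without WT CD34+ library 9, to 199. It was 94 with limma on log2 ratios and 81 when a coverage of 20 reads was asked of each cytosine. Without the 5 libraries of high scatter it was 211, of which 160 were among the 170. All 170 differences had the same sign within each of flowcells A, B and D. For the 141 losses and 18 gains without overlap between the WT fractions this sign was fixed in advance.

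In PML-RARα mice fewer windows were called between the fractions than in WT mice, but not fewer had a small unadjusted p. In the quasi-binomial test 684 of the 4701 (14.6%) had one below 0.05, where 9.59% of all windows did. In WT mice these were 612 (13.0%), where 6.18% of all windows did. Called or not, 769 differed by at least 10 points in PML-RARα and 675 in WT mice. Over all 84524 windows 3233 and 2186 did. Of the 4701 windows 35 (0.745%) were called, where 0.0722% of all windows were. Methylation was lower in CD34− cells in 32 (0.0615% of all windows were called lower) and higher in 3 (0.0106% were called higher). The 32 losses had a median level of 8.19% in PML-RARα CD34− and 28.3% in PML-RARα CD34+ cells. In 19 of the 32 the CD34− mean was below 10%, and 29 of these called windows had no overlap between fractions. Without regard to calls, all CD34− libraries were lower in 2.21% of the 4701 windows and in 0.765% of all windows. Of the 155 cytosines of the 32 windows, 153 were lower in CD34− cells.

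The count of 35 changed with single libraries and with the design. It was 11 without PML-RARα CD34+ library 19, 19 without PML-RARα CD34+ library 3, 20 without PML-RARα CD34− library 20 and 21 without PML-RARα CD34− library 6 or library 14. It was 22 with limma, 9 with a coverage of 20 reads, 5 when the PML-RARα groups were fitted alone and 17 when 20 points were required. It was 10 without the 5 libraries of high scatter and 0 of 4701 when flowcell was a factor in the fit, with 447 at an unadjusted p below 0.05. On flowcell B, with 2 CD34− and 3 CD34+ libraries, all 35 differences had the same sign as over all libraries, with a median of -21.6 points among the losses. For the 29 losses and 2 gains without overlap between the PML-RARα fractions this sign was fixed in advance.

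The smallest adjusted p was at chr13:44504001-44505000, a window of 6 cytosines. Levels were 29.6, 23.0, 25.9, 25.8 and 24.4% in PML-RARα CD34− libraries, against 66.3, 57.8, 60.6, 58.9 and 52.0% in PML-RARα CD34+ libraries. They were 50.2, 32.5, 40.5, 33.2 and 43.4% in WT CD34− libraries, against 76.8, 69.9, 74.3, 57.1 and 67.5% in WT CD34+ libraries. The fractions did not overlap in either genotype, and the differences were -33.4 points in PML-RARα (adjusted p = 0.000384) and -29.1 points in WT mice (adjusted p = 0.000387, quasi-binomial test for both).

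At chr5:134691001-134692000, called in both genotypes, levels were 3.88, 12.1, 5.84, 9.13 and 3.70% in PML-RARα CD34− libraries, against 40.7, 51.9, 55.3, 30.6 and 30.2% in PML-RARα CD34+ libraries. They were 7.62, 12.6, 15.1, 2.63 and 8.61% in WT CD34− libraries, against 75.9, 60.7, 62.5, 53.7 and 45.9% in WT CD34+ libraries. The fractions did not overlap in either genotype and differed by -34.8 points in PML-RARα (adjusted p = 0.0112) and -50.4 points in WT mice (adjusted p = 6.54e-05, quasi-binomial test for both). Both calls held without each of the 20 libraries.

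At chr16:32102001-32103000, of 7 cytosines, the level was 2.47 ± 1.62% in PML-RARα CD34−, 25.5 ± 9.57% in PML-RARα CD34+, 6.54 ± 4.97% in WT CD34− and 50.6 ± 7.31% in WT CD34+ libraries (n = 5 per group, SD). At chr3:122135001-122136000, of 6 cytosines, it was 27.2 ± 8.41%, 53.3 ± 4.81%, 32.9 ± 3.84% and 77.0 ± 6.35% in the same order of groups. Both were called in both genotypes and kept the PML-RARα call without each library. The 10 largest PML-RARα losses also included chr1:135000001-135001000, chr10:67282001-67283000, chr16:75986001-75987000, chr12:82043001-82044000, chr3:131142001-131143000 and chr11:9091001-9092000, with differences between -27.3 and -42.8 points. Of the 10, 4 held without each library in turn and 6 had an adjusted p below 0.05 with limma.

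The 3 gains in PML-RARα mice were at chr11:100753001-100754000, chr13:51843001-51844000 (14.1 points) and chr2:165613001-165614000 (13.6 points). At the last of these, levels were 55.4 ± 2.87% in PML-RARα CD34−, 41.8 ± 3.92% in PML-RARα CD34+, 51.9 ± 2.95% in WT CD34− and 32.9 ± 3.29% in WT CD34+ libraries (n = 5 per group, SD). None of the 3 held without every library in turn, and limma called none of them.

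The differences of the 2 maturation comparisons come from separate libraries, but their calls are not independent. Both tests use the same estimate of the spread of a window, taken from all 20 libraries. The windows were also selected on their average over these libraries. When the PML-RARα groups were fitted alone, 5 windows were called between their fractions, all among the 35 of the main fit. In the main fit 32 windows were called in both comparisons, and all 32 changed in the same direction. They are 18.8% of the 170 of WT and 91.4% of the 35 of PML-RARα. Over all 84524 windows 49 were called in both, which is 12.9% of the 380 of WT and 80.3% of the 61 of PML-RARα. Of the 170 called in WT, 168 had the same sign in PML-RARα, where 59.6% of all 4701 did. At the 150 WT losses the median level was 16.4% in PML-RARα CD34− and 33.9% in PML-RARα CD34+ cells, and 132 of the 170 differed there by at least 10 points. Over the 4701 windows the 2 differences had a Pearson correlation of 0.497, a description over windows that share the same 20 libraries.

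Whether the maturation change itself differed between genotypes was tested on log odds, the logarithm of methylated over unmethylated reads, and not in points. Changes that differ in points can be alike on this scale. At chr16:32102001-32103000 the change was -44.1 points in WT and -23.1 points in PML-RARα mice, with an unadjusted interaction p of 0.889 (quasi-binomial test). The 0 calls below thus do not test differences in points. The test is named the interaction. It called 0 of 4701 windows, as it did over all windows (0%), with 290 at an unadjusted p below 0.05 in the quasi-binomial test and 173 in limma, which also called 0. The 290 are 6.17% of the set, where 5.19% of all windows had such a p-value in the quasi-binomial test. The smallest adjusted p was 0.809, at chr11:98610001-98611000, where the level was 27.1 ± 2.48% in PML-RARα CD34−, 36.7 ± 3.70% in PML-RARα CD34+, 39.7 ± 3.58% in WT CD34− and 31.1 ± 3.65% in WT CD34+ libraries (n = 5 per group, SD). The other windows of smallest p were chr5:141260001-141261000, chr6:51806001-51807000, chr8:124987001-124988000, chr15:72641001-72642000 and chr19:36178001-36179000, with adjusted p-values of 0.908 to 0.911. Among the 170 windows called in WT, 52 had an unadjusted interaction p below 0.05 and the smallest adjusted p was 0.911. These 170 were chosen on the WT libraries that also enter the interaction.

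**Figure D4:**
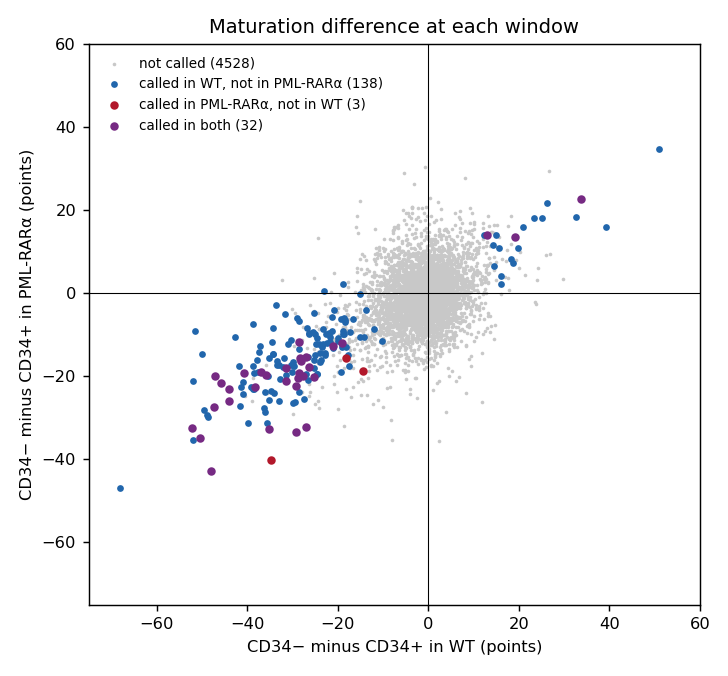
CD34− minus CD34+ difference in methylation (points) in PML-RARα mice (vertical) against WT mice (horizontal) at each of the 4701 sparse low-methylated windows. The 32 windows called in both genotypes lie to the lower left and upper right of the zero lines, and most of the 138 called in WT and not in PML-RARα lie there too.

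When the 2 fractions were compared over both genotypes together, 241 windows (5.13%) were called, where 0.647% of all windows were. Methylation was lower in CD34− cells in 211 (0.569% of all windows were called lower) and higher in 30 (0.0781% were called higher). Of the 241, 76 had been called in neither genotype alone. Examples are the gains at chr10:20912001-20913000 (27.9 points, adjusted p = 0.00104, quasi-binomial test) and chr10:87955001-87956000 (18.4 points, adjusted p = 0.0474), the second of which was kept without only 3 of the 20 libraries.

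Averaged over the 211 losses, every CD34− library was lower than every CD34+ library, as the choice of these windows implies. The level was 18.3 ± 1.03% in PML-RARα CD34−, 35.6 ± 4.93% in PML-RARα CD34+, 19.9 ± 2.98% in WT CD34− and 47.3 ± 5.85% in WT CD34+ libraries (n = 5 per group, SD). PML-RARα CD34+ libraries measured 36.6, 43.4, 33.3, 30.2 and 34.7%, against 50.7, 49.5, 53.6, 39.0 and 43.9% in WT CD34+ libraries. These ranges overlap through PML-RARα library 5, a library of high scatter, while 4 of 5 PML-RARα libraries lay below all WT libraries. The CD34− groups lay between 17.0 and 19.6% in PML-RARα and between 16.0 and 23.6% in WT.

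Over the 30 gains the order was turned round. The level was 40.1 ± 1.86% in PML-RARα CD34−, 24.7 ± 2.55% in PML-RARα CD34+, 38.3 ± 2.92% in WT CD34− and 18.5 ± 3.20% in WT CD34+ libraries (n = 5 per group, SD). In CD34+ cells PML-RARα minus WT was -11.7 points over the 211 losses and 6.19 points over the 30 gains. In CD34− cells it was -1.59 and 1.71 points. Within flowcells the CD34+ genotype difference over the losses was -11.7 points on flowcell B and -16.1 points on flowcell D. The first set 3 PML-RARα libraries against 1 WT library, and the second 1 against 2. The CD34− one was 0.301 points on flowcell A (3 against 2 libraries) and 0.136 points on flowcell B (2 against 1). The comparison of fractions that chose these windows and the comparison of genotypes use the same 20 libraries, so these averages carry no test.

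Between genotypes a single window passed the test, and it did so over both fractions together. PML-RARα against WT gave 0 of 4701 windows in CD34+ cells (0% of all windows), with 362 at an unadjusted p below 0.05 by the quasi-binomial test and 0 calls and 330 such windows by limma. In CD34− cells it also gave 0 (0% of all windows), with 382 at an unadjusted p below 0.05, and 0 calls and 221 such windows by limma. By the quasi-binomial test the 362 are 7.70% of the set, where 4.39% of all windows had such a p-value. The 382 are 8.13% of the set, near the 8.03% of all windows. Without the 5 libraries of high scatter 2 windows were called in CD34+ cells, chr3:122135001-122136000 and chr13:44629001-44630000, with adjusted p-values of 0.0221 and 0.0229. In CD34+ cells, over all libraries, the smallest p-values with PML-RARα lower were at chr3:122135001-122136000 (-23.8 points, adjusted p = 0.145), chr13:44629001-44630000 (-40.8 points, adjusted p = 0.389) and chr6:51806001-51807000 (-23.3 points, adjusted p = 0.533). Those with PML-RARα higher were at chr12:36396001-36397000 (19.2 points), chr15:99449001-99450000 (18.2 points) and chr5:113543001-113544000 (10.8 points), with adjusted p-values of 0.584 to 1. In CD34− cells they were at chr2:180168001-180169000 (13.0 ± 4.69% in PML-RARα and 29.0 ± 6.77% in WT libraries, SD, n = 5 each), chr13:44629001-44630000 (-28.7 points) and chr11:98610001-98611000 (-12.6 points) for lower levels. For higher levels they were at chr1:58087001-58088000 (20.0 points), chr7:35531001-35532000 (10.6 points) and chr1:136615001-136616000 (7.65 points), and the adjusted p-values of all 6 were between 0.211 and 0.330.

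Over both fractions together 1 window was called, the only such window among all 84524 (0.00118%). At chr13:44629001-44630000 levels were 10.3, 0, 0.476, 17.6 and 4.21% in PML-RARα CD34− libraries, against 48.6, 27.1, 30.3, 35.0 and 34.8% in WT CD34− libraries. They were 20.4, 44.0, 30.1, 25.3 and 16.4% in PML-RARα CD34+ libraries, against 77.1, 65.7, 70.3, 64.9 and 62.2% in WT CD34+ libraries. Within each fraction the PML-RARα libraries were all lower than the WT libraries. By necessity the same order held within flowcells A and B in CD34− cells and B and D in CD34+ cells. The difference was -34.7 points (adjusted p = 0.00974, quasi-binomial test), and it kept its call without each library in turn, with adjusted p-values of 0.00181 to 0.0495. With flowcell as a factor the adjusted p was 0.191, and with limma 0.377, so the call ended under both. In addition the window was called between the WT fractions, by -32.9 points (adjusted p = 0.0190, quasi-binomial test). That call was kept in 14 of the 20 fits without 1 library and was not made with limma (adjusted p = 0.9996).

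This window is the middle of a run of 3 adjacent windows, chr13:44628001-44631000, that lies 195000 bp from the nearest dense unmethylated window. Its 3 cytosines averaged 0 to 16.1% in PML-RARα CD34−, 6.43 to 45.2% in PML-RARα CD34+, 0.614 to 65.5% in WT CD34− and 50.7 to 81.2% in WT CD34+ cells. The following window, chr13:44630001-44631000, had 7.45 ± 2.14% in PML-RARα CD34−, 11.1 ± 4.14% in PML-RARα CD34+, 11.2 ± 4.01% in WT CD34− and 20.5 ± 6.66% in WT CD34+ libraries (n = 5 per group, SD) and was not called (genotype difference -6.59 points, adjusted p = 0.601). The preceding one, chr13:44628001-44629000, held unmethylated and highly methylated cytosines side by side, with a genotype difference of -5.59 points (adjusted p = 0.865). The difference was thus largest over the middle window and the first cytosines of the one after it. The window chr13:44504001-44505000, described above for its change with maturation, lies on the same chromosome before this run.

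**Figure D5:**
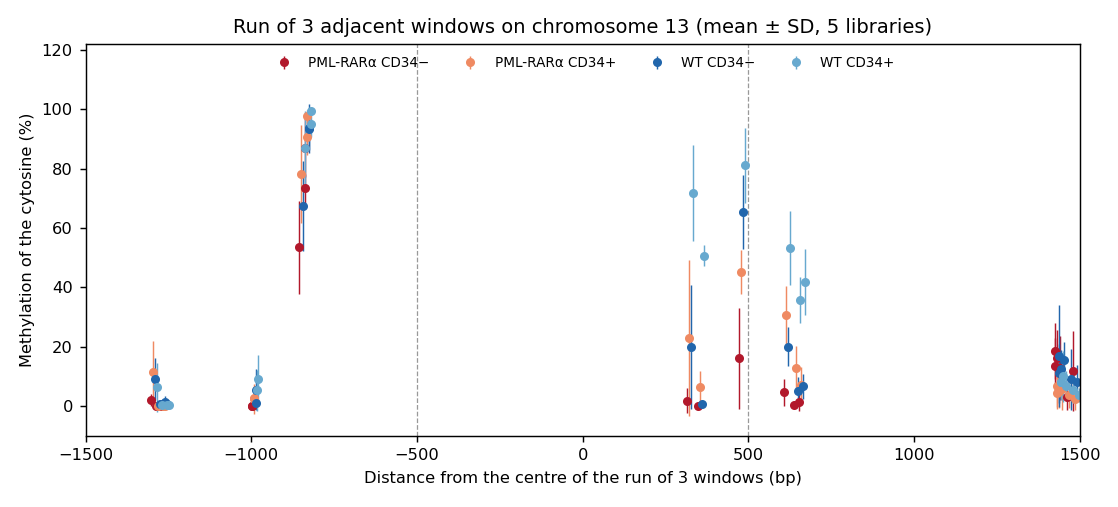
Methylation (%) of each cytosine in the run of 3 adjacent windows on chromosome 13 against distance from the centre of the run (bp), as the mean and SD of the 5 libraries of each group, with dashed lines at the borders of the windows. At the 6 cytosines from 324 to 662 bp after the centre the WT CD34+ points lie highest and the PML-RARα CD34− points lowest, while the cytosines at both ends of the run differ less between groups.

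The other 4 runs of 3 windows were at chr1:156570001-156573000, chr4:127637001-127640000, chr9:74713001-74716000 and chr14:33192001-33195000, and no window in them was called in any comparison. Over the run on chromosome 1, for example, the level was 24.3 ± 5.22% in PML-RARα CD34−, 23.4 ± 6.15% in PML-RARα CD34+, 25.9 ± 4.15% in WT CD34− and 26.3 ± 3.72% in WT CD34+ libraries (n = 5 per group, SD). Among windows with at least 200 reads in every library, those of largest spread over the 20 libraries were all called between fractions in 1 or both genotypes: chr9:50701001-50702000 (SD 32.6 points), chr19:18655001-18656000 (26.4 points), chr11:9091001-9092000 (23.8 points), chr10:67282001-67283000 (22.2 points) and chr11:113403001-113404000 (22.1 points).

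The called windows were also counted by how far apart the cytosines of a window lay. Between the WT fractions, 45 of the 776 windows with a range under 20 points between cytosines (5.80%) were called, 80 of the 1712 with a range of 20 to 50 points (4.67%) and 45 of the 2213 with a range over 50 points (2.03%). Of the 964 windows with a cytosine below 10% beside one above 80%, 7 (0.726%) were called, and of the 648 with all cytosines from 10% to below 50%, 41 (6.33%). In PML-RARα mice the counts over the 3 ranges were 15 (1.93%), 14 (0.818%) and 6 (0.271%). The within-group SD of a window had a median of 8.14, 8.06 and 8.04 points in the 3 ranges. The median of the average level was 19.4, 25.6 and 37.4% in them, and no test of these shares was made.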

How the data were processed

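DNA methylation was measured by ERRBS in 20 libraries, 5 per group, and grouped by genotype and fraction as given in the labels. The submitters' processing notes name CASAVA 1.8.2, Bismark and the mm9 genome. Deposited are, per the file headers, the count of reads covering each CpG cytosine and the percent of those reads with C and with T. No cytosine below 10 reads is listed. Coverage times percent C, rounded, gave the methylated reads. Libraries of a group differed by more than sampling noise (chi-square per window 5.91 to 38.9), so none was counted as a duplicate.

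The 1150978 autosomal cytosines that reached 10 reads in each of the 20 libraries were added up in fixed 1000 bp windows holding 3 or more of them. A quasi-binomial logistic model with 4 group terms was applied to each of 84524 windows. The overdispersion (16 residual degrees of freedom) was moderated over windows by the method of limma's squeezeVar, with 3.07 prior degrees of freedom and a floor of 1. F tests of the deviance were two-sided, with Benjamini-Hochberg adjustment over all windows. The test was checked on simulated data.

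The windows and comparisons were chosen with earlier results of these data known. Named are the 10 largest called losses and gains of a comparison (all where fewer), or, for a comparison without calls, the 3 windows of smallest p each way. The longest runs, the edges of the level range and the 5 smallest and 5 largest SDs among windows with 200 reads in every library are named too. Sequences, genes and promoters at these positions were not analysed here, as no genome or annotation of the mm9 build was used. Alternatives were a coverage of 20 reads, windows shifted by 500 bp, limma 3.58.1 on log2((methylated + 1)/(unmethylated + 1)), flowcell as a factor, a fit of the compared groups alone, a difference of 20 points, a distance of 5000 bp, the title numbers as a block and each library left out. Python 3.11.15, numpy 2.4.6, scipy 1.17.1, pandas 2.3.3, matplotlib 3.10.9 and R 4.3.3 were used. No molecular identifiers are named in the labels, so reads may not be independent molecules.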

Additional observations from a re-analysis of the deposited data

Results flagged for a closer look

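In 208 groups of 5 libraries, 17 values stood far from the other 4 libraries of their group by Dixon's test. In independent groups not chosen on their values about 10.4 would do so, that is about 1 in 20 groups. Most groups here are of the 49 named windows, chosen on values of the same libraries, so the 2 numbers cannot be compared. PML-RARα CD34+ library 11 gave 4 of them at named windows, with 87.9% at chr1:135000001-135001000 (others 37.3 to 51.1%), 19.5% at chr7:35531001-35532000 (others 29.4 to 33.0%), 12.5% at chr8:124987001-124988000 (others 36.8 to 43.1%) and 26.4% at chr17:70042001-70043000 (others 30.7 to 32.4%). PML-RARα CD34− library 6 had 70.5% at chr1:58087001-58088000 (others 53.3 to 57.0%) and 59.1% at chr10:87955001-87956000 (others 35.8 to 41.5%), and library 4 of that group had 18.1% at chr12:82043001-82044000 (others 0 to 4.74%). WT CD34− library 2 had 10.1% at chr1:136615001-136616000 (others 13.8 to 15.0%) and 52.7% at chr15:49159001-49160000 (others 46.7 to 47.8%), library 10 had 15.2% at chr9:96041001-96042000 (others 0 to 0.813%), and library 16 had 23.9% at chr19:36178001-36179000 (others 9.85 to 13.6%). WT CD34+ library 9 had 24.7% at chr11:98610001-98611000 (others 31.6 to 33.7%) and library 1 had 32.8% at chr11:120503001-120504000 (others 14.6 to 18.4%).

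The share of the 4701 windows without a methylated read was 3.06% in PML-RARα CD34− library 6, 3.74% in PML-RARα CD34+ library 11 and 2.77% in WT CD34+ library 1. The median deviation of WT CD34+ library 1 from its group over the windows was 8.39 points, against 3.63 to 4.82 points in the others. Of these 3 libraries, PML-RARα CD34+ 11 and WT CD34+ 1 had the lowest median coverage of the windows, 245 and 251 reads, while PML-RARα CD34− 6 had 621 reads.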

How the results depend on the processing

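No sign changed among 72 differences of named windows without the 5 libraries of high scatter or without each library in turn. With limma, flowcell as a factor, the compared groups alone or the title numbers as a block, only the p-values were refitted. The difference stayed that of the group means, so its sign could not change there. The counts of called windows as reported were 35 between the PML-RARα fractions, 170 between the WT fractions, 241 between the fractions of both genotypes together, 0 between genotypes in CD34+ and in CD34− cells and 1 between genotypes over both fractions. With a coverage of at least 20 reads, which left 3200 windows, the first 3 counts were 9, 81 and 128, and mean levels were 28.6% in PML-RARα CD34−, 29.7% in PML-RARα CD34+, 28.9% in WT CD34− and 30.9% in WT CD34+ libraries. With limma the counts were 22, 94 and 174, and 0 between genotypes over both fractions. With flowcell as a factor they were 0, 155 and 133, and again 0 between genotypes over both fractions. Requiring 20 points gave 17, 132 and 124, and fitting the PML-RARα groups alone gave 5 between their fractions. Windows shifted by 500 bp gave 1 call between genotypes in CD34+ cells, at chr13:44629501-44630500, and 2 over both fractions, there and at chr17:35562501-35563500. Without the 5 libraries of high scatter, an alternative added after the data were seen, 10 PML-RARα maturation calls were made, 8 of them among the 35, and 2 genotype calls in CD34+ cells and 3 over both fractions appeared, at chr13:44629001-44630000, chr3:122135001-122136000 and chr3:84233001-84234000, windows named after their values were seen. The cause of these changes was not tested. Leaving out each library gave 11 to 49, 114 to 199 and 198 to 242 calls for the fractions, 0 to 1 and 0 between genotypes in CD34+ and in CD34− cells, 1 to 2 over both fractions and 0 for the interaction. The labels do not say that the title numbers pair the libraries, and the deviations gave no clear pairing. Libraries of neighbouring numbers correlated by -0.0568 to 0.221, over 0.1 in 3 of 10 pairs, and 5 of 10 correlated best with their own partner. As a replicate block they gave 43, 147 and 205 calls for the fractions and 0 for the interaction. Coverage limits the windows of fewest reads, where a library had as few as 30.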

Other observations

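The windows were also split by coverage into 3 classes of near equal size, with 370 and 636 reads as the bounds of a window's median coverage. In PML-RARα mice 0.511% of the windows of low, 0.958% of middle and 0.765% of high coverage were called between the fractions. In WT mice the shares were 3.70% at low, 3.77% at middle and 3.38% at high coverage. By number of cytosines the WT share was 3.72% at 3 to 4 cytosines, 4.09% at 5 to 6 and 2.53% at 7 to 9.

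By chromosome, the windows called between the WT fractions were most numerous on chromosome 10 (17 of 248) and chromosome 11 (16 of 410). On chromosome 18 none of 145 was called, and on chromosome 1 it was 3 of 250. By average level, 4.12% of the windows of 10 to 20% were called between the WT fractions, 3.94% of those of 20 to 30%, 4.04% of those of 30 to 40% and 2.63% of those of 40 to 50%. No test of these shares was made.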
